A study of Mus musculus with 6 samples.

Results

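The enzymes that write and erase marks on histones, leaving aside the Polycomb complexes, were examined in mouse embryonic stem cells with and without the RNA helicase Ddx5, also called p68. Members were the genes of the deposited table named as lysine demethylases (Kdm), Mll-type methyltransferases (Kmt2), SET domain methyltransferases (Setd), arginine methyltransferases (Prmt), histone deacetylases (Hdac), sirtuins (Sirt) or lysine acetyltransferases (Kat) with a number. Kdm2b, a subunit of a Polycomb complex, and the Y-linked Kdm5d were left out by the rule. This gave 59 of 10989 genes. The rule reads gene names and no measured value.

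The cells were of the mouse embryonic stem cell line MPI-II. Of 6 RNA-seq libraries, 2 were wild type (WT, DDX5+/+, numbered as replicates) and 4 were knockout (KO, DDX5-/-, each labelled as a separate line), although the design text of the series mentions triplicates. The KO lines were single clones made with a Cas9 nickase and paired guides against the second exon of Ddx5, after G418 selection, and WT is the parental line. Both groups, at passages 13 to 18, grew on feeder cells with 15% serum, leukemia inhibitory factor at 1000 U/ml, the MEK inhibitor PD0325901 at 1 μM and the GSK3 inhibitor CH99021 at 3 μM. The labels do not state separate cultures for the 2 WT libraries, so the p-values speak only of the spread among these libraries, which for WT may be technical.

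Histones carry chemical marks that are set by methyltransferases and acetyltransferases and removed by demethylases, deacetylases and sirtuins. Methylation of lysine 4 of histone H3 (H3K4) marks active promoters and enhancers, methylation of H3K36 marks transcribed gene bodies, and methylation of H3K9 and H3K27 goes with silencing. Acetylation goes with open, active chromatin. In embryonic stem cells these enzymes work beside the Polycomb complexes in keeping developmental genes ready but quiet.

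Levels are given as the normalized scores of the deposited table (units), whole numbers whose library totals lay between 14612799 and 14722877. Sequencing depth is unknown, so no counting interval can be given. Identical values recur across libraries and genes, so sums of units need not be amounts of RNA. WT replicate 2 had the most zeros, with 131 of the 10989 genes listed at 0 against 13 to 19 in the other libraries. No member was at 0 in any library. Log2 levels over all genes correlated at 0.934 between the 2 WT libraries and at 0.967 to 0.99 among KO lines. Between KO and WT they correlated at 0.89 to 0.932, so the WT libraries were little closer to each other than to KO. Ddx5 itself stood at 36433 and 36436 units in WT and at 5854, 8450, 12793 and 5659 units in KO lines 1 to 4 (log2 fold change -2.23, adjusted p = 0.00807, limma). Of 17 measured feeder fibroblast markers, 15 were lower in the KO lines, with a median log2 change of -2.51. The summed level of the 17 was 91313 and 59816 units in WT against 43029 to 46707 units in KO. Fn1 alone held 36452 units in WT replicate 1 and in each KO line, and without it the sums were 54861 and 29961 units in WT against 6577 to 10255 units in KO. Col6a3 was the 1 marker listed at 0, in KO line 4, while Fn1 and Pdgfrb did not pass. Fewer fibroblasts and less RNA per fibroblast cannot be told apart in bulk RNA, and the part of these cells in the changes of the histone enzymes was not tested. Of 15 embryonic stem cell markers, 1 (Nanog) was higher and 2 (Klf4 and Lin28a) were lower, with summed levels of 184633 and 114530 units in WT around the 137596 to 145127 units of KO. Dppa5a alone held 78894 and 17548 of these units in WT, and without it the sums were 105739 and 96982 units in WT against 101178 to 108709 units in KO. Markers of primitive endoderm, trophoblast and neural ectoderm were in the table for 1, 3 and 3 genes, none called, and no mesoderm marker was measured.

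In the KO lines 6 histone-modifying enzyme genes were higher and 2 were lower. The other members did not pass, which does not show that their levels were unchanged. The arginine methyltransferase Prmt8 rose the most, 9.72-fold. The H3K27 demethylase Kdm6b (2.01-fold), the H3K4 demethylase Kdm1b (1.87-fold), the deacetylase Hdac6 (1.77-fold), the mitochondrial sirtuin Sirt3 (1.62-fold) and the H3K9 demethylase Kdm4c (1.36-fold) rose too, as ratios of mean deposited units. The H3K4 methyltransferase Setd1b fell to 0.521 and the deacetylase Sirt1 to 0.683 of its WT mean. Calls rest on limma, with an adjusted p below 0.05 in a fit over all genes on log2 of the scaled value plus 1. By that rule 17.1% of all genes were called, 9.75% higher and 7.34% lower. Of the members 8 of 59 (13.6%) were called, 10.2% higher and 3.39% lower, so the share called was close to or below that of the table as a whole. The median log2 change was 0.11 over the members and 0.04 over all genes, and its median size, without sign, was 0.21 against 0.29. A call with a log2 change of at least 1 in size was made for 2 members, Prmt8 and Kdm6b (3.39%), and for 6.56% of all genes. In 46 members the log2 change was under 0.5 in size. Of the 8 calls, those of Prmt8, Kdm6b and Hdac6 held in each of the 6 fits that left out 1 library, while the other 5 were lost in at least 1. Of the 51 members not called, 13 passed in at least 1 of these fits.

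**Figure D1:**
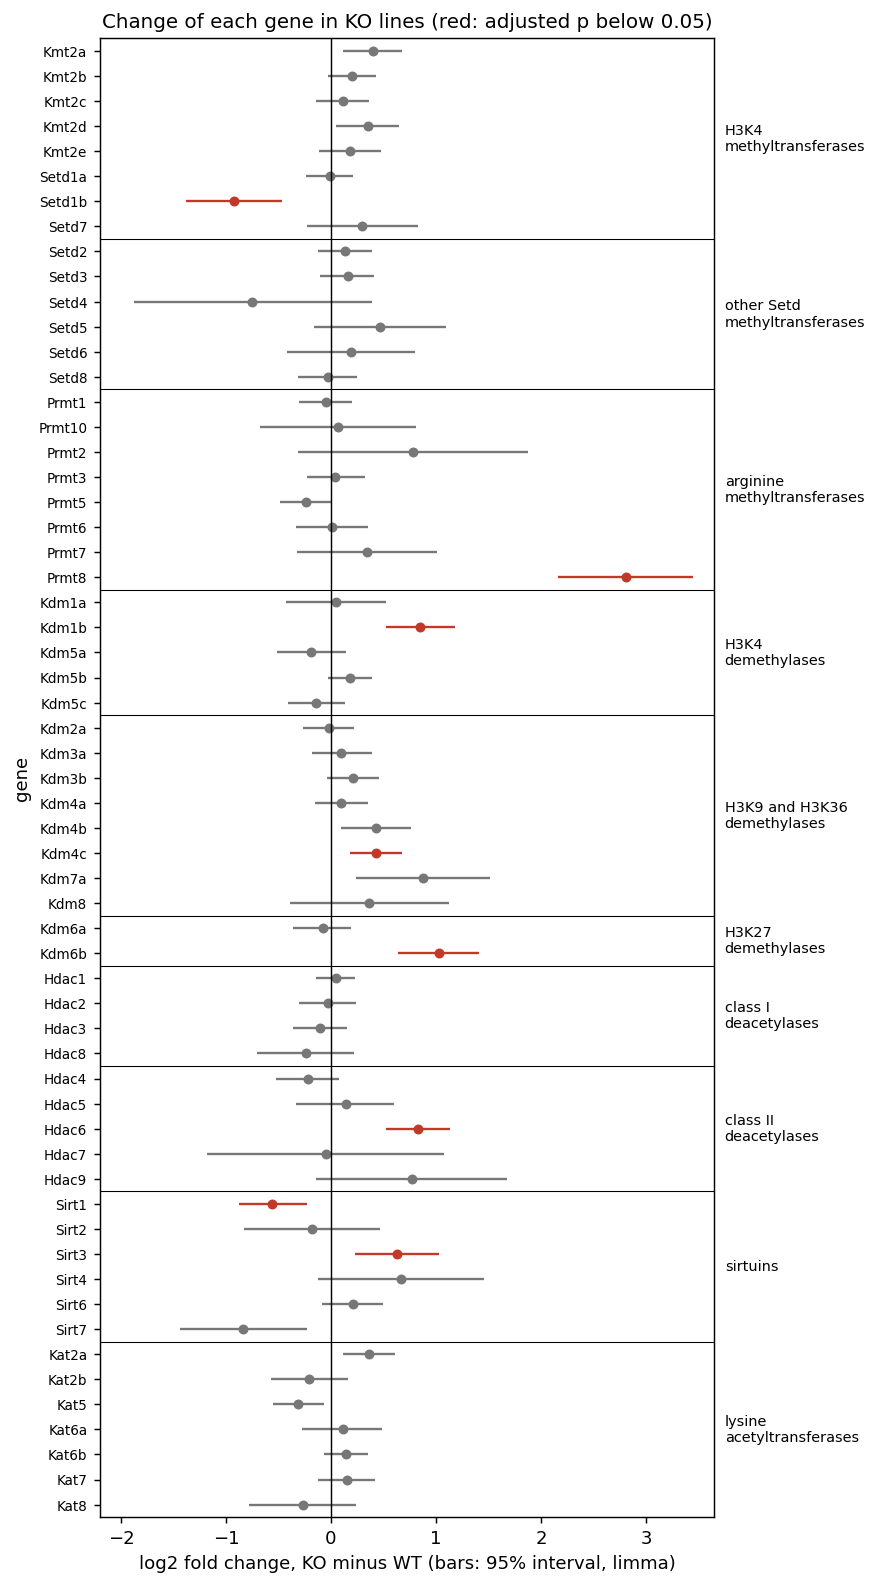
Log2 fold change of each of the 59 genes in the KO lines against WT (x axis; gene on the y axis, grouped by role), with bars for the 95% interval from limma and called genes in red. The called genes lie between -0.92 for Setd1b and 2.81 for Prmt8. Most other estimates lie near 0, some with wide intervals.

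The 8 called genes are described first. Prmt8, an arginine methyltransferase held at the cell membrane and known mainly from brain (ENSMUSG00000030350, chromosome 6, 127689011 to 127769472, minus strand, GENCODE M21, build mm10), stood at 41 and 17 units in WT. KO lines 1 to 4 held 326, 242, 246 and 314 units of it. All 4 lines lay far above both WT libraries, and the WT mean, from values 2.41-fold apart, was the lowest of the 59 members. The log2 change was 2.81 (SE 0.274, adjusted p = 0.00333, limma), between 2.40 and 3.21 with a library left out. The KO mean was 6.88-fold that of WT replicate 1 and 16.6-fold that of WT replicate 2. Prmt8 lies on chromosome 6, whose genes as a whole stood higher in KO line 4, and without that library the gene was still called. With the median of each chromosome removed from each library, its log2 change was 2.64 (adjusted p = 0.00219).

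Kdm6b, also called Jmjd3, removes the H3K27 methylation that Polycomb repressive complex 2 sets (ENSMUSG00000018476, chromosome 11, 69398508 to 69413675, minus strand). WT held 1270 and 838 units of its RNA, and KO lines 1 to 4 held 2274, 2140, 2036 and 2024. The KO lines lay within 1.12-fold of each other and all above WT. The log2 change was 1.03 (SE 0.164, adjusted p = 0.0112), between 0.73 and 1.32 with a library left out.

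Hdac6, a mostly cytoplasmic deacetylase best known for acting on tubulin (ENSMUSG00000031161, chromosome X, 7930120 to 7947889, minus strand), had 1806 and 1368 units in WT, against 3042, 2706, 2671 and 2800 in KO. No KO line reached down to the WT values, and the log2 change was 0.83 (SE 0.128, adjusted p = 0.0103). Kdm1b, also called Lsd2, removes H3K4 methylation and is needed in oocytes for imprint setting (ENSMUSG00000038080, chromosome 13, 47043499 to 47085279, plus strand). WT had 196 and 168 units, and KO had 312, 324, 347 and 377 (log2 0.85, SE 0.14, adjusted p = 0.0123). Its groups did not overlap, but its call was lost if KO line 2 or KO line 3 was omitted (adjusted p up to 0.0508).

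Sirt3, a deacetylase of mitochondrial proteins (ENSMUSG00000025486, chromosome 7, 140863666 to 140882309, minus strand), lay at 112 and 118 units in WT. In KO it lay at 209, 164, 178 and 196 units, above WT in every line (log2 0.63, SE 0.168, adjusted p = 0.0453). Its call was lost whichever of the 6 libraries was omitted (adjusted p from 0.0551 to 0.115). Kdm4c, a demethylase of H3K9 and H3K36 (ENSMUSG00000028397, chromosome 4, 74242497 to 74405860, plus strand), had 1200 and 1106 units in WT, against 1702, 1598, 1425 and 1525 in KO. The groups did not overlap, the log2 change was 0.43 (SE 0.105, adjusted p = 0.0348), and of the 6 fits that each omitted 1 library the call held in 1, that lacking WT replicate 1 (adjusted p up to 0.111 in the others).

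Setd1b, the catalytic subunit of a complex that methylates H3K4 (ENSMUSG00000038384, chromosome 5, 123142193 to 123168629, plus strand), had 844 and 662 units in WT, against 457, 424, 390 and 297 in KO lines 1 to 4. Every KO line was below both WT libraries, KO line 4 the lowest (log2 -0.92, SE 0.194, adjusted p = 0.0228). Omitting WT replicate 1, KO line 2 or KO line 3 ended the call (adjusted p up to 0.0697). Sirt1, a nuclear deacetylase of histones, p53 and other proteins (ENSMUSG00000020063, chromosome 10, 63319005 to 63381704, minus strand), had 2286 and 2200 units in WT. The KO lines had 1737, 1524, 1608 and 1258, with no overlap (log2 -0.56, SE 0.137, adjusted p = 0.0364). Its call was kept without KO line 1 or KO line 4 and lost in the other 4 such fits (adjusted p up to 0.101).

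**Figure D2:**
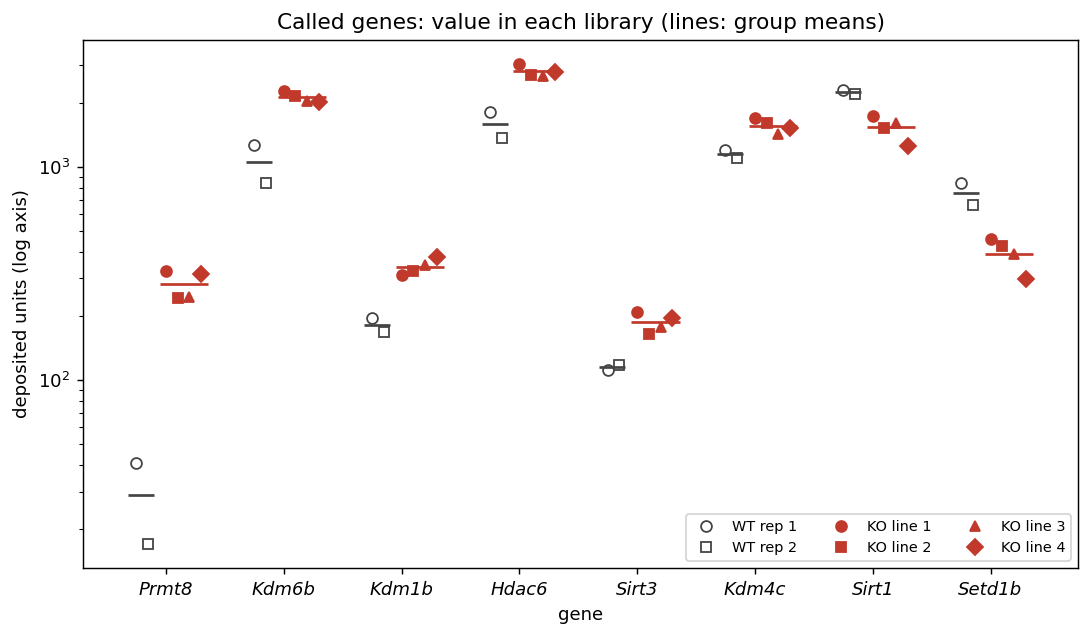
Value of the 8 called genes in each library (y axis, deposited units on a log axis; gene on the x axis), open symbols for WT, filled red symbols for KO lines, short lines for group means. In each gene the 4 KO lines lie on one side of both WT libraries, from Prmt8 (17 and 41 units in WT, 242 to 326 in KO) to Setd1b.

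Parts of some of these genes are shared in the annotation with a gene on the opposite strand. Kdm1b shares 9.19% of its exon sequence with Dek, Prmt8 shares 8.55% with Gm42738, Kdm6b shares 4.11% with Kdm6bos, Sirt1 shares 1.22% with Gm16145, and Sirt3 shares 7.0% with Ric8a and 5.73% with Psmd13. Whether strand was used in counting is not given in the sources used here, so reads from these stretches cannot be told apart.

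The sequence just before the start of transcription is shown for Prmt8 and Hdac6, of the genes that rose in every fit with a library left out, and for Sirt1, which fell. No entry was matched for Kdm6b and Setd1b. Each is the 250 bases upstream of a RefSeq start site (GRCm38.p6, minus strand), 5′ to 3′. Capitals mark the E-box CACGTG and the GC box CCGCCC, read on both strands (CCGCCC appears as GGGCGG on the other), which do not overlap each other, while overlapping GC boxes count separately. Of all 32851 windows of this length, 6.02% hold CACGTG and 32.7% hold CCGCCC.
Prmt8, chr6:127769156-127769405: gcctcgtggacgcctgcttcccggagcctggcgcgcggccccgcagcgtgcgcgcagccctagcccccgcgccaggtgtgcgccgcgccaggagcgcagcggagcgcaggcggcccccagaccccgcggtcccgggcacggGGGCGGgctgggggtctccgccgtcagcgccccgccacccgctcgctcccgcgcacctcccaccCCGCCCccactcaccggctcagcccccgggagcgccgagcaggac
Hdac6, chrX:7947890-7948139: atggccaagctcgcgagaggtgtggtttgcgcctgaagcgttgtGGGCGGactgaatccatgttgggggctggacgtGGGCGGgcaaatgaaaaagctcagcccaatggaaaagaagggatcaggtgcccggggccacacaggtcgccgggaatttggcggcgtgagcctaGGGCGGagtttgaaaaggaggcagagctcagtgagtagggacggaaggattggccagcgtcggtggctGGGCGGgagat
Sirt1, chr10:63339036-63339285: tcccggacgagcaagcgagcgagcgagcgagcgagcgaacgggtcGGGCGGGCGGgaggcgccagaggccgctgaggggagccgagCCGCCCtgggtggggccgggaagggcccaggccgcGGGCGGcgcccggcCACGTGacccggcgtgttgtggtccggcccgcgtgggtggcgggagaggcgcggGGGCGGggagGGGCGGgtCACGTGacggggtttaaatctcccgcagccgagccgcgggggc
The Prmt8 window has 82.0% G and C, 37 CpG pairs, 2 GC boxes and no E-box. The Hdac6 window has 61.2% G and C, 17 CpG pairs and 4 GC boxes. The Sirt1 window has 79.2% G and C, 39 CpG pairs, 6 GC boxes and 2 E-boxes. E-boxes were not limited to a gene that fell. A window of Kdm4c, which rose (chr4:74251629-74251878, not shown), also has 2 E-boxes, while another Kdm4c window has none. The median window has 52.4% G and C and 6 CpG pairs. These matches describe the letters only. Windows were matched for 48 of the 59 members.

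Among the H3K4 methyltransferases, 1 of 8 fell, 0 rose, and 7 were not called, with a median log2 change of 0.19. The 5 Kmt2 genes encode the large Mll proteins. Kmt2a, Kmt2b and Kmt2d, which act at Hox gene, promoter and enhancer sites, stood above both WT libraries in every KO line without passing. Kmt2a had 1294 and 1104 units in WT, against 1743, 1530, 1650 and 1408 in KO (log2 0.40, adjusted p = 0.065). Omitting WT replicate 1 made it pass (adjusted p = 0.0422). Kmt2d had 2036 and 1734 units in WT, against 2526, 2480, 2592 and 2057 in KO (log2 0.35, adjusted p = 0.0945). Omitting KO line 4 made it pass (adjusted p = 0.0484). Kmt2b had a log2 change of 0.20, Kmt2c of 0.11 and Kmt2e of 0.18. Setd1a, the paralog of Setd1b, had 2377 and 2150 units in WT and 2111 to 2426 in KO, with overlap (log2 -0.01, 95% interval -0.24 to 0.21). Except in the paralog ratios, levels of different genes are compared below as deposited units per kilobase of annotated exon. Whether the authors had already scaled for length is not given in the sources used here. On that scale Setd1a had the highest mean level of the role (331 units per kilobase), followed by Kmt2b (286) and Kmt2d (112), while Setd1b stood at 62.4 in WT and 32.5 in KO. Setd7, a monomethyltransferase of H3K4, had a log2 change of 0.30.

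None of the 6 other Setd methyltransferases passed. Setd2, which sets H3K36 methylation, had 2658 and 2316 units in WT and 2424 to 2911 in KO, with overlap. Setd8, now named Kmt5a, methylates H4K20 and had a log2 change of -0.03. Setd3, a histidine methyltransferase of actin, lay slightly higher in every KO line (log2 0.16, adjusted p = 0.33). Per kilobase of exon the highest mean levels of the role were those of Setd8 (387), Setd6 (382) and Setd5 (299).

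Prmt8 was the 1 called gene among 8 arginine methyltransferases, and the other 7 did not pass. Prmt1, its closest paralog and the main asymmetric arginine methyltransferase of most cells, had 5126 and 5671 units in WT and 4616 to 5560 in KO (log2 -0.05, 95% interval -0.30 to 0.20). Prmt5, the main symmetric arginine methyltransferase, had 2869 and 3020 units in WT, against 2408, 2491, 2283 and 2818 in KO. All 4 lines were below WT, but the change did not pass (log2 -0.24, adjusted p = 0.153). Prmt3, which acts on a ribosomal protein, had a log2 change of 0.04, and Prmt6, which methylates H3R2, of 0.01. Per kilobase of exon Prmt8 went from 10.6 units in WT to 104 units in KO, still below the means of Prmt5 (669), Prmt7 (368) and Prmt3 (188). A length was not available for Prmt1.

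Of the 5 H3K4 demethylases 1 rose and 4 did not pass. Kdm1a, or Lsd1, a subunit of the CoREST complex and the paralog of Kdm1b, stood at 3394 and 5946 units in WT, with all KO lines between them (4525 to 4697 units). Its log2 change was 0.05 over all libraries, but -0.36 with WT replicate 1 omitted (adjusted p = 0.0178) and 0.45 with WT replicate 2 omitted (0.0215), so no direction can be given. Kdm5b, which removes H3K4 methylation at promoters, had 7536 and 8268 units in WT and 8265 to 9391 in KO (log2 0.18, adjusted p = 0.202). Kdm5a and the X-linked Kdm5c had log2 changes of -0.19 and -0.14. With the median of each chromosome removed, Kdm5a, on chromosome 6, was lower and passed (log2 -0.36, adjusted p = 0.0334). Mean levels per kilobase of exon were 898 for Kdm1a, 519 for Kdm5b and 335 for Kdm5c.

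Of the 8 demethylases of H3K9 and H3K36, 1 rose and 7 did not pass, with a median log2 change of 0.29, and 7 of 8 had a positive change, against 54.2% of all genes. Kdm7a, a demethylase of H3K9 and H3K27, had 303 and 210 units in WT, against 546, 418, 346 and 646 in KO. All lines lay above WT, KO line 4 the highest (log2 0.88, SE 0.268, adjusted p = 0.064). Kdm7a lies on chromosome 6, and with chromosome medians removed it passed narrowly (log2 0.70, adjusted p = 0.0498). Kdm4b, a paralog of Kdm4c, had 887 and 746 units in WT, against 1201, 1124, 928 and 1180 in KO, again without overlap (log2 0.43, adjusted p = 0.0739). Kdm4a had a log2 change of 0.10. Kdm3a and Kdm3b, which act on H3K9, had log2 changes of 0.10 and 0.21. Kdm2a, a demethylase of H3K36, changed by -0.02, with its KO lines between the 2 WT values. Kdm8 was the 1 member whose KO lines differed by over 2-fold, at 86, 94, 101 and 49 units. Kdm3a had the highest mean per kilobase of exon (830), then Kdm4a (251) and Kdm4c (245).

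Of the 2 H3K27 demethylases, Kdm6b rose and the X-linked Kdm6a, or Utx, did not pass. Kdm6a had 1516 and 1360 units in WT, against 1525, 1356, 1352 and 1213 in KO (log2 -0.08, 95% interval -0.36 to 0.19). Per kilobase of exon, Kdm6b stood at 183 and 121 units in WT and Kdm6a at 181 and 162 units, an order that differed between the 2 libraries. In the KO lines Kdm6b stood at 291 to 327 units, above Kdm6a (145 to 182 units) in each line.

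To compare called genes with their paralogs directly, the log2 ratio of the 2 genes was taken in each library for 5 pairs. These ratios used the scaled values plus 1, without division by exon length. Their sign therefore does not give the order of the 2 genes per kilobase, and only the difference between KO and WT is read. The ratio of Kdm6b to Kdm6a was -0.25 and -0.69 in WT and 0.57, 0.65, 0.59 and 0.73 in KO, a difference of 1.11. The KO minus WT difference in log2 ratio was 2.86 for Prmt8 over Prmt1 and 0.81 for Kdm1b over Kdm1a. It was 0.33 for Kdm4c over Kdm4a and -0.91 for Setd1b over Setd1a. Kdm4b, another paralog of Kdm4c, was not among the pairs. Its log2 change, 0.43, was the same as that of Kdm4c, so Kdm4c did not stand apart from Kdm4b. In each pair the KO and WT ratios did not overlap, and the exact permutation test gave p = 0.0667, two-sided, adjusted 0.0667 over the 5 pairs. That is the smallest p that 2 libraries against 4 can give, so the design cannot pass 0.05 here. The pairs were chosen because 1 of the genes was called, so the direction adds no separate evidence. For Kdm1b over Kdm1a the difference was 0.30 against WT replicate 1 alone and 1.31 against WT replicate 2 alone, values computed after the data had been seen.

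None of the 4 class I deacetylases passed. Hdac1 and Hdac2 are catalytic subunits of the NuRD, Sin3 and CoREST complexes, and Hdac3 of the NCoR complex. Hdac1 had 3638 and 3754 units in WT, against 3984, 3870, 3761 and 3676 in KO (log2 0.05, 95% interval -0.14 to 0.23). Hdac2 had a log2 change of -0.03 (95% interval -0.30 to 0.24) and Hdac3 of -0.10 (-0.36 to 0.15). Hdac8 lay lower in every KO line, at 89 to 100 units against 108 and 118 units in WT (log2 -0.24, adjusted p = 0.415). Mean levels per kilobase of exon were 1100 units for Hdac1, 614 for Hdac2 and 255 for Hdac3.

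Of 5 class II deacetylases, Hdac6 rose and the other 4 did not pass. Hdac4 and Hdac5, signal-regulated corepressors, had log2 changes of -0.22 and 0.14. Hdac7 stood at 469 and 116 units in WT, with the KO lines between them at 176 to 277 units. Its log2 change of -0.05 became 0.89 with WT replicate 1 omitted (adjusted p = 0.049) and -0.99 with WT replicate 2 omitted, so no direction can be given for it. Hdac9 showed the opposite order in WT, 46 and 146 units, with 129 to 192 units in KO (log2 0.77, adjusted p = 0.197). Its log2 change was 1.47 with WT replicate 2 omitted (adjusted p = 0.023) and 0.07 with WT replicate 1 omitted. Per kilobase of exon Hdac6 averaged 412 units, against 79.7 for Hdac5 and 37.3 for Hdac7.

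The sirtuins, deacetylases that use NAD, moved both ways: of 6 members, Sirt3 rose, Sirt1 fell and 4 did not pass. Sirt7, a nucleolar deacetylase of H3K18, had 268 and 224 units in WT, against 168, 136, 144 and 88 in KO. All lines were below WT, KO line 4 the lowest (log2 -0.84, SE 0.255, adjusted p = 0.0629). Sirt6, which acts on H3K9 and H3K56 acetylation, had a log2 change of 0.21. Sirt2, a tubulin deacetylase, differed between the WT libraries (642 and 300 units), with KO between them at 348 to 426 units, and passed with WT replicate 2 omitted (log2 -0.71, adjusted p = 0.0314, and 0.35 on the log2 scale with WT replicate 1 omitted). Sirt4, a mitochondrial sirtuin, had 74 and 30 units in WT and 74 to 97 in KO, and passed with WT replicate 1 omitted (log2 1.16, adjusted p = 0.0227). Per kilobase of exon Sirt1 averaged 332 units, Sirt6 204 and Sirt2 82.5.

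None of the 7 lysine acetyltransferases passed. Kat2a, or Gcn5, the acetyltransferase of the SAGA complex, came closest, at 2840 and 2282 units in WT and 3100, 3344, 3317 and 3317 units in KO. All lines lay above WT (log2 0.36, SE 0.107, adjusted p = 0.0603), and Kat2a passed with chromosome medians removed (adjusted p = 0.0436) and if WT replicate 1 was omitted (0.0118). Kat5, or Tip60, had 600 and 660 units in WT, against 509, 502, 489 and 514 in KO, below WT in each line (log2 -0.31, adjusted p = 0.0734, and 0.039 with WT replicate 1 omitted). Kat2b, the paralog of Kat2a, had a log2 change of -0.21. Kat6a, Kat6b and Kat7, of the MYST family, had log2 changes of 0.11, 0.14 and 0.15. Kat7 passed with WT replicate 1 omitted (log2 0.33, adjusted p = 0.0322). Kat8, which acetylates H4K16, stood at 493 and 278 units in WT with KO between them at 294 to 322 units. With WT replicate 2 omitted Kat8 passed (log2 -0.67, adjusted p = 0.0247), and with WT replicate 1 omitted its log2 change was 0.13. Mean levels per kilobase of exon were 872 for Kat2a, 766 for Kat7 and 325 for Kat6b.

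**Figure D3:**
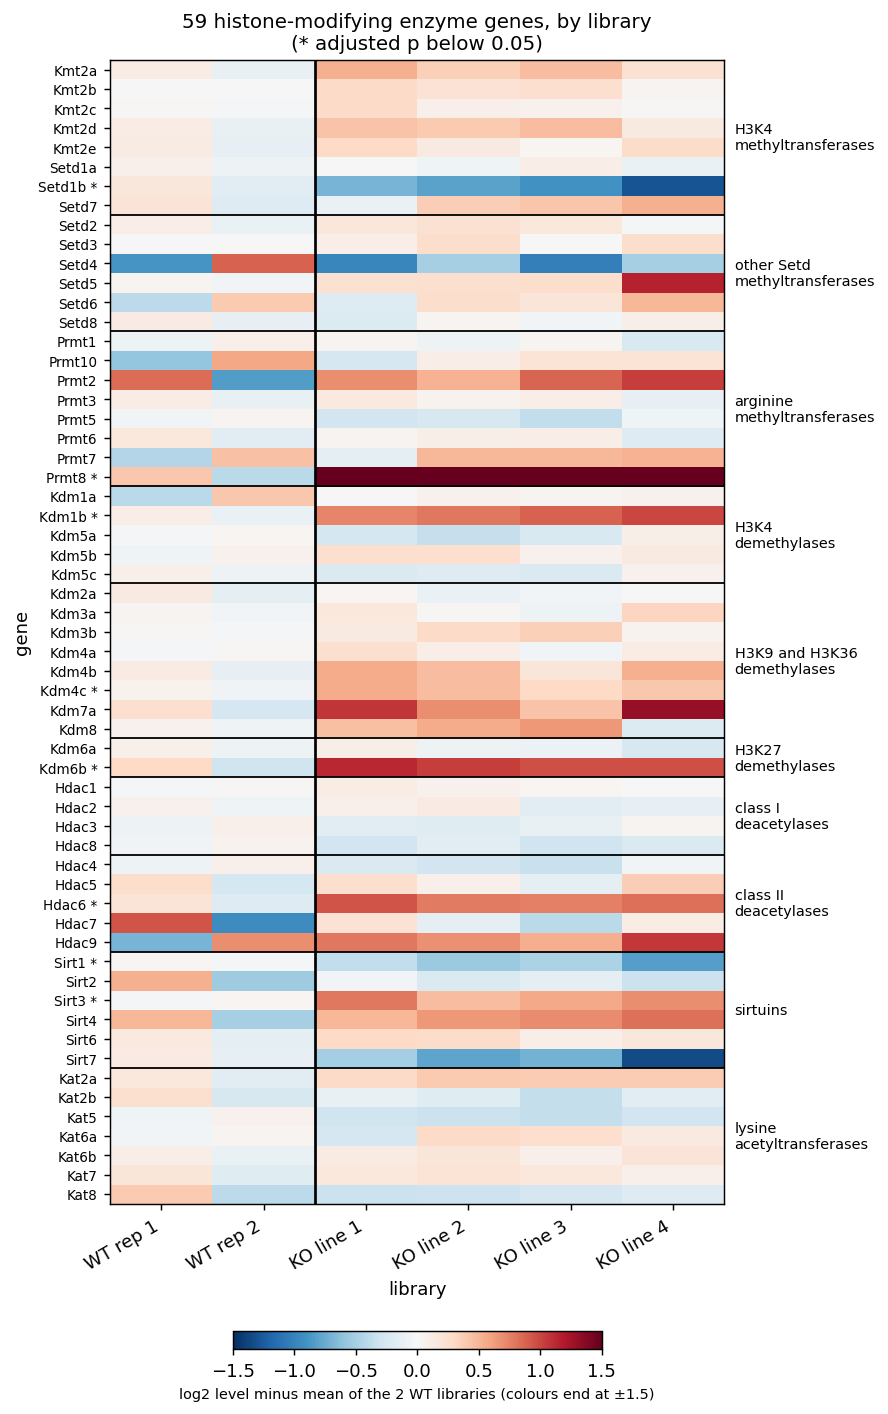
Log2 level of each gene (rows, grouped by role, asterisks for called genes) in each library (columns), less the mean of the 2 WT libraries; red is higher, blue lower, and colours end at ±1.5. Prmt8, Kdm6b, Hdac6 and Kdm1b are red in all 4 KO columns, Setd1b is blue in all 4, and Setd4, Prmt2, Hdac7 and Hdac9 differ in colour between the 2 WT columns.

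Counted by side, 15 members had all 4 KO lines above both WT libraries and 6 had all below, 35.6% in all, against 43.7% of all genes. The side was above for 25.4% of members and 24.1% of all genes, and below for 10.2% and 19.6%. The 9 members that lay above without being called were Kmt2a, Kmt2b, Kmt2d, Setd3, Setd5, Kdm3b, Kdm4b, Kdm7a and Kat2a, and the 4 that lay below were Prmt5, Hdac8, Sirt7 and Kat5.

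The 2 WT values differed at least 2-fold in 8 members (13.6%, against 11.2% of all genes), and the highest and lowest KO line did so in 1 (1.69%, against 7.84%). The 8 were Prmt2 (96 and 20 units in replicates 1 and 2), Hdac7, Setd4 (74 and 290 units), Hdac9, Sirt4, Prmt8, Prmt10 (now Prmt9, 184 and 432 units) and Sirt2. Prmt2 and Setd4 did not pass over all libraries (log2 0.78 and -0.75), but both did with WT replicate 1 omitted (log2 1.62 and -1.64, adjusted p = 0.0138 and 0.0142). With WT replicate 2 omitted their signs turned (-0.06 and 0.14). All KO lines lay between the 2 WT values in 6 members, namely Prmt10, Kdm1a, Kdm2a, Hdac7, Sirt2 and Kat8.

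On chromosomes 6 and 8, genes of the whole chromosome differed between libraries, and some members moved with them. The part of this in the members' values was not tested beyond the fit with chromosome medians removed. Genes of chromosome 6 (518 genes) had a median log2 deviation of 0.42 from their mean over the 6 libraries in KO line 4, against -0.16 to -0.04 in the others. Setd5, which is on it, stood at 9394 units in KO line 4 and at 4945, 5012 and 5072 units in the other KO lines, against 4348 and 4113 units in WT. On the log2 scale this shift of Setd5 in KO line 4 was larger than that of the chromosome median. Kdm3a, Kdm5a and Kdm7a were also highest among the KO lines in line 4, at 8080, 1599 and 646 units, while Prmt8 was highest in line 1. On chromosome 8 (603 genes) the median was -0.34 in WT replicate 1 and -0.32 in KO line 1, against 0.07 to 0.22 in the other 4 libraries. Prmt7, which methylates arginines to the monomethyl state, stood at 1374 units in WT replicate 1 and 1684 in KO line 1, against 2520 to 2674 units in the others. Setd6 was lower in the same 2 libraries, at 492 and 566 units against 738 to 923 units, and so was Prmt10, at 184 and 236 units against 304 to 432 units. Kat6a was lowest in KO line 1 (1348 units against 1561 to 1970). None of the 4 members on chromosome 8 passed.

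**Figure D4:**
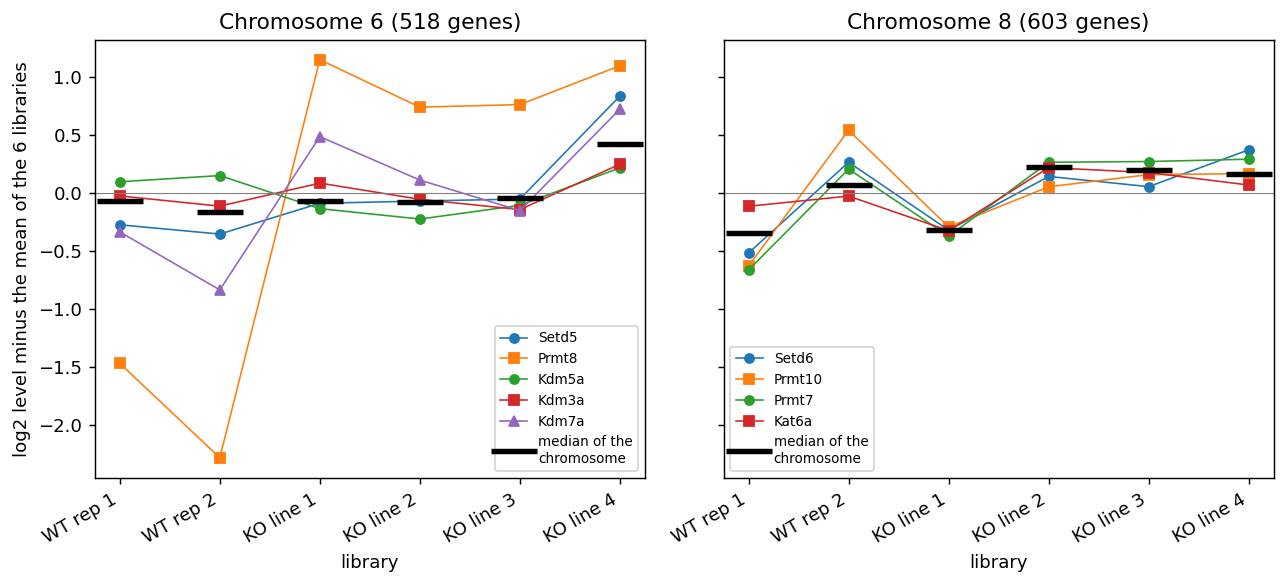
Log2 level of the members on chromosome 6 (left) and chromosome 8 (right) less each gene's mean over the 6 libraries (y axis), by library (x axis), with black bars for the median of all measured genes of the chromosome. The bars rise to 0.42 in KO line 4 for chromosome 6 and fall to -0.34 and -0.32 in WT replicate 1 and KO line 1 for chromosome 8. Setd5 and Prmt7 shift in the same direction in these libraries, Setd5 by more than the bar of its chromosome.

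Genes of the complexes in which these enzymes work, and other histone enzymes named differently, were taken from 6 lists. Of 125 measured rows (Supt20 stands on 2), 10 rose, 11 fell and 104 did not pass. The share called, 16.8%, was close to the 17.1% of all genes, with a median log2 change of -0.03 against 0.04 over all genes. None of the 14 genes listed for COMPASS, the H3K4 methylation complexes, and proteins associated with it or with H3K4 methylation passed, with log2 changes from -0.43 to 0.25. Of 36 deacetylase complex genes 4 rose and 4 fell. Mta1 of the NuRD complex rose by 0.62 on the log2 scale and the zinc finger corepressor Zmym2 by 0.57. Sap18, of the Sin3 complex, fell by 1.14, Brms1 by 0.98 and Dnttip1, of a mitotic deacetylase complex, by 0.79.

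Of 46 acetyltransferase complex rows 4 rose and 5 fell. Supt3 of SAGA rose by 0.72, Brpf3 by 0.64 and Supt20 by 0.51 (the other row of Supt20 had a log2 change of -0.06), while Morf4l2, a subunit of the Tip60 complex, fell by 0.78, Ing5 by 0.71 and Epc1 by 0.62. Morf4l2 had 9698 and 10090 units in WT, against 5484, 5788, 5788 and 6048 in KO (adjusted p = 0.00333). Among 13 other histone methyltransferases Smyd2 rose (0.91) and Suv420h1, an H4K20 methyltransferase, fell (log2 -0.56). Among 9 other demethylases Hr rose (1.02) and Jmjd1c, a relative of Kdm3a and Kdm3b, fell. Jmjd1c had 3864 and 3676 units in WT, against 2294, 1686, 1686 and 1666 in KO (log2 -1.05, SE 0.148, adjusted p = 0.00805). None of 7 partners of arginine methyltransferases passed (median log2 change -0.23, 7 negative, against 45.8% negative of all genes). The number of calls over the 6 lists depended on the libraries used, with 35 if WT replicate 1 was omitted, and 10, 4 and 7 if KO line 1, 2 or 3 was.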

How the data were processed

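RNA-seq gave 1 value per gene in each of 2 WT and 4 KO libraries. Per the submitters' processing notes, RSEM 1.2.17, Bowtie2 2.2.0 and build mm10 were used, with their roles, the annotation and the normalization not given in the sources used here. Although the authors name the unit CPM, the whole-number values sum to at least 14612799 per library and share their highest value, 78894, so the deposited values were treated as a normalized score of unknown depth. Identical values also recur across libraries and genes. Fn1 held 36452 units in WT replicate 1 and in each KO line. Pou5f1 in WT replicate 1 and Dppa5a in WT replicate 2 both held 17548. Whether the scores were assigned by rank was not tested. The test had been planned for CPM. Each value was divided by 14.7 (the mean library total in deposited units over 1000000), a pseudocount of 1 was added and log2 taken, which understates changes of low genes. A scaled value of at least 1 in 2 libraries was required, which removed no gene, so all 59 members passed.

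KO was compared with WT in limma 3.58.1 (R 4.3.3), with lmFit, with eBayes (trend by mean level), no covariate, 4 residual degrees of freedom, Benjamini-Hochberg adjustment over all 10989 genes, two-sided. The fit was also run on simulated data with independent normal noise for each gene. That simulation held no chromosome shifts, so it does not bear on them, and its outcome is not given here. TMM factors came from an implementation of the trimmed mean of M values on the scaled values. GENCODE M21 gave positions and exon lengths for 58 members (all but Prmt1), and RefSeq gave promoters. Named genes were all members, each at least once, Ddx5, and up to 3 called genes per direction of each partner list. The values of 1 gene so named are not reported here. Alternatives were 2 pseudocounts, 2 filters, 2 scalings, 2 variance models, removal of chromosome medians, the number as a block, and each library left out. The members and lists were chosen with earlier results of these data known.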

Additional observations from a re-analysis of the deposited data

Results flagged for a closer look

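In 4 of the 59 members, 1 KO line lay apart from the other 3. Its gap to the nearest line, as a share of the range of the lines on the log2 scale, exceeded Dixon's 95% critical value. This measure is relative, so the gap itself can be small. Chance flags about 1 in 20 such groups. Setd5 stood at 9394 units in KO line 4 against 4945 to 5072 in the other lines. Kdm5c stood at 2654 units in KO line 4 against 2172 to 2212. Prmt7 stood at 1684 units in KO line 1 against 2625 to 2674. Kat2a stood at 3100 units in KO line 1 against 3317 to 3344, with all KO lines within 1.08-fold of each other. Setd5 lies on chromosome 6, whose genes stood higher in KO line 4, and Prmt7 on chromosome 8, whose genes stood lower in KO line 1, while Kdm5c and Kat2a lie on chromosomes X and 11.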

How the results depend on the processing

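The 8 calls among members were unchanged in number with either pseudocount (0.1 or 5) and either filter. They were 7 with TMM scaling or quantile normalization (Sirt3 lost). The deposited libraries already shared their highest value and had near-equal totals. The median log2 change of all genes still went from 0.04 to 0 with TMM scaling and to 0.02 with quantile normalization. Calls numbered 6 without the variance trend (Kdm4c and Sirt1 lost) and 10 with chromosome medians removed (Kat2a, Kdm5a and Kdm7a gained, Sirt3 lost). With weights per library there were 3 (Prmt8, Kdm6b and Hdac6), in 3 roles in place of 7, and 3 partner genes were called in place of 21, with Ddx5 at a log2 change of -2 and an adjusted p of 0.092, and 3.48% of all genes were called. With a library left out, calls among members ranged from 3 (without KO line 2 or KO line 3) to 14 (without WT replicate 1), where 4.3%, 5.21% and 30.1% of all genes were called, in 3 to 9 roles, and calls among partner genes from 4 to 35. With WT replicate 1 left out, 5 of the 14 were among the 8. The median log2 change of members was then between 0.07 and 0.15. It was 0.07 with TMM scaling and 0.06 with chromosome medians removed, where the median of all genes was 0. Kdm1a and Hdac7 changed sign without WT replicate 1 (log2 -0.36 and 0.89), and stood at 0.45 and -0.99 without WT replicate 2. Over the 16 alternatives, none of the 8 called members changed sign.

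The replicate numbers (replicate for WT, line for KO) state no pairing. Deviations of same-numbered libraries from their group means correlated at 0.14 and 0.10 over genes. Those of differently numbered libraries correlated at -0.14 to 0.10, with WT replicate 2 and KO line 3 also at 0.10. The 2 WT deviations are exact opposites, so the 2 correlations of each KO line differ only in sign. The -0.14 is thus the 0.14 with its sign turned and adds no separate comparison. With the number as a replicate block, limma called 0 members in 0 roles and 0 partner genes, and 0.182% of all genes. At an unadjusted p below 0.05 there were 11 members. KO lines 3 and 4 have no WT library of their number, so this fit had fewer residual degrees of freedom than the main fit. Few genes could pass in it, so it cannot decide on a pairing or on the members. Depth is unknown, which limits what can be said of low genes such as Prmt8 in WT. With 2 WT libraries, a wrong value in either weighs on every comparison.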
